A study of Mus musculus with 24 samples.

Results

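The transforming growth factor beta (TGF-beta) pathway was followed from its ligand to its nuclear co-repressors in regulatory T (Treg) cells of the mouse spleen. Its 10 genes were *Tgfb1*, *Tgfbr1*, *Tgfbr2*, *Tgfbr3*, *Smad2*, *Smad3*, *Smad4*, *Smad7*, *Ski* and *Skil*, chosen by symbol for their place in the pathway, and all 10 were found among the 17464 genes of the deposited table. The choice was made with earlier results of these data known. *Tgfbr3* reached 10 units in 23 of the 24 libraries and the other 9 did so in all 24, so none was lost to the filter on low values. Bulk RNA-seq libraries had been made from 3 subsets sorted out of the spleens of wild-type C57BL/6JRccHsd mice, 4 of them young (2 months) and 4 old (26 months). Resting (rTreg) cells were sorted as CD62L+ CD44-, activated (aTreg) cells as CD62L- CD44+ and kTreg cells as KLRG1+, and the 3 subsets of a mouse carry the same replicate number, which gives 6 groups of 4 libraries. None of the groups is labelled with an engineered allele or a treatment.

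TGF-beta is secreted as a latent dimer that has to be freed from its propeptide, and Treg cells are known both as a source of it and as cells whose identity depends on it. The free ligand joins a type II receptor to a type I receptor kinase, which phosphorylates the receptor-regulated SMADs, and these enter the nucleus with the common SMAD to act on target genes. The pathway is held back by an inhibitory SMAD at the receptor and by the co-repressors SKI and SnoN on chromatin.

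The members lie on 6 chromosomes. In GRCm39 *Tgfb1* is on the plus strand at chr7:25386390-25404506, *Tgfbr1* on the plus strand at chr4:47353134-47414931, *Tgfbr3* on the minus strand at chr5:107249402-107437623 and *Smad3* on the minus strand at chr9:63554049-63665476. *Tgfbr2* shares chromosome 9 with *Smad3*, *Ski* shares chromosome 4 with *Tgfbr1*, and *Skil* is on chromosome 3. The values count reads over the exons of each gene, so they do not separate isoforms.

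Promoters of 5 members, *Tgfb1*, *Tgfbr1*, *Tgfbr2*, *Smad3* and *Ski*, were in the RefSeq promoter table (GRCm38.p6), which holds 250 bases before and 50 after each start. The 3 shown belong to the members with higher values in kTreg than in rTreg cells at an adjusted p under 0.05. Each was found once, base for base, on its chromosome in GRCm39, *Tgfb1* at chr7:25386177-25386476 (plus strand), *Tgfbr1* at chr4:47352972-47353271 (plus strand) and *Smad3* at chr9:63665227-63665526 (minus strand). Capitals mark, on either strand and with overlaps merged, the letters CAGAC of the SMAD-binding element and the GC-rich letters GGCGC and GGCCG.
Tgfb1: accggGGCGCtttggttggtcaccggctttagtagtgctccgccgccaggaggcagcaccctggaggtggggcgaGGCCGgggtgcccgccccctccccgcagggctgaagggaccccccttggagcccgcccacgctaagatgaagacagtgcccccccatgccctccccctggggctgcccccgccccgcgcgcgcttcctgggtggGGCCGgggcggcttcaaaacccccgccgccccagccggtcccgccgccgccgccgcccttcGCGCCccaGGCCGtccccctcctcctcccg
Tgfbr1: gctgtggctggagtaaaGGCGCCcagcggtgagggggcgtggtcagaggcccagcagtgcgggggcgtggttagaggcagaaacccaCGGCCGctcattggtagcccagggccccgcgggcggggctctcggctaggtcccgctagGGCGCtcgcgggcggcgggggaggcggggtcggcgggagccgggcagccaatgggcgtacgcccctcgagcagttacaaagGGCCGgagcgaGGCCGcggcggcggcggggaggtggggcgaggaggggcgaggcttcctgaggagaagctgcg
Smad3: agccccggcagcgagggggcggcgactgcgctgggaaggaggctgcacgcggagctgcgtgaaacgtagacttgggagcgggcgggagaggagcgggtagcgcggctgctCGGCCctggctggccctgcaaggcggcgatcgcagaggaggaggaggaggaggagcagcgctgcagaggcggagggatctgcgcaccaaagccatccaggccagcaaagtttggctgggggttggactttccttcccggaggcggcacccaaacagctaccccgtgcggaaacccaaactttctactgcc
The letters GGCGC or GGCCG were found 5 times for *Tgfb1*, 7 times for *Tgfbr1* and 1 time for *Smad3*, and at least once in 48.3% of all 32851 promoters of the table. CAGAC had 0 matches in each of the 3, and was found in 49.6% of all promoters. The table holds another promoter of *Tgfbr1*, not shown, with 1 match of CAGAC and 0 of the GC-rich letters. These counts describe letters in a window and were not linked to expression.

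Libraries held between 15045747 and 29521942 reads on listed genes. Values are reads divided by the library's size factor, called normalized units here, and 1 read was worth 0.694 to 1.32 units. The T cell and Treg markers were present in every library, and *Klrg1* lay between 16559 and 41561 units in kTreg libraries and between 0.694 and 357 in all others. The summed level of 5 Treg markers was 24240 to 54967 units in old aTreg and 63489 to 65345 in young aTreg libraries. It was 45916 to 57678 in old rTreg, 52969 to 62378 in young rTreg, 79352 to 91337 in old kTreg and 91434 to 97191 in young kTreg libraries. The young kTreg library of replicate 4 stood apart, with 4913 listed genes at 0 against 419 to 2756 in the other 23. The old aTreg library of replicate 2 had the lowest *Foxp3* value, 5079 units, against 13151 to 37793 elsewhere. The summed level of 6 B cell markers was 16712, 9523 and 7921 units in the rTreg, aTreg and kTreg libraries of young mouse 2 and between 589 and 2065 in the other libraries. The summed level of 6 macrophage and monocyte markers was 10095 to 26208 units in old rTreg, 569 to 8102 in young rTreg, 52 to 2818 in young aTreg, 226 to 324 in old aTreg, 1912 to 2820 in old kTreg and 0 to 19949 in young kTreg libraries. The young kTreg library of replicate 4 listed all 6 of these markers at 0, and that of replicate 2 was the highest of its group. The part of these libraries and cells in the results was not tested, and values without them are given beside the results they change most.

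Scaled per kilobase of exon, *Tgfbr2* had the highest median level over the 24 libraries, 551 units per kb, followed by *Smad4* (449), *Ski* (385) and *Tgfb1* (273). *Tgfbr1* (189), *Smad3* (186) and *Smad2* (176 units per kb) lay close together, with library ranges that overlapped. *Skil* (120) and *Smad7* (103) were lower, and *Tgfbr3* was the lowest at 30.6 units per kb. *Smad4* varied least between libraries, 1.80-fold from the lowest to the highest. *Tgfbr1* varied 6.45-fold, and *Tgfbr3* ran from 0 to 656 units, which gives no ratio.

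**Figure D1:**
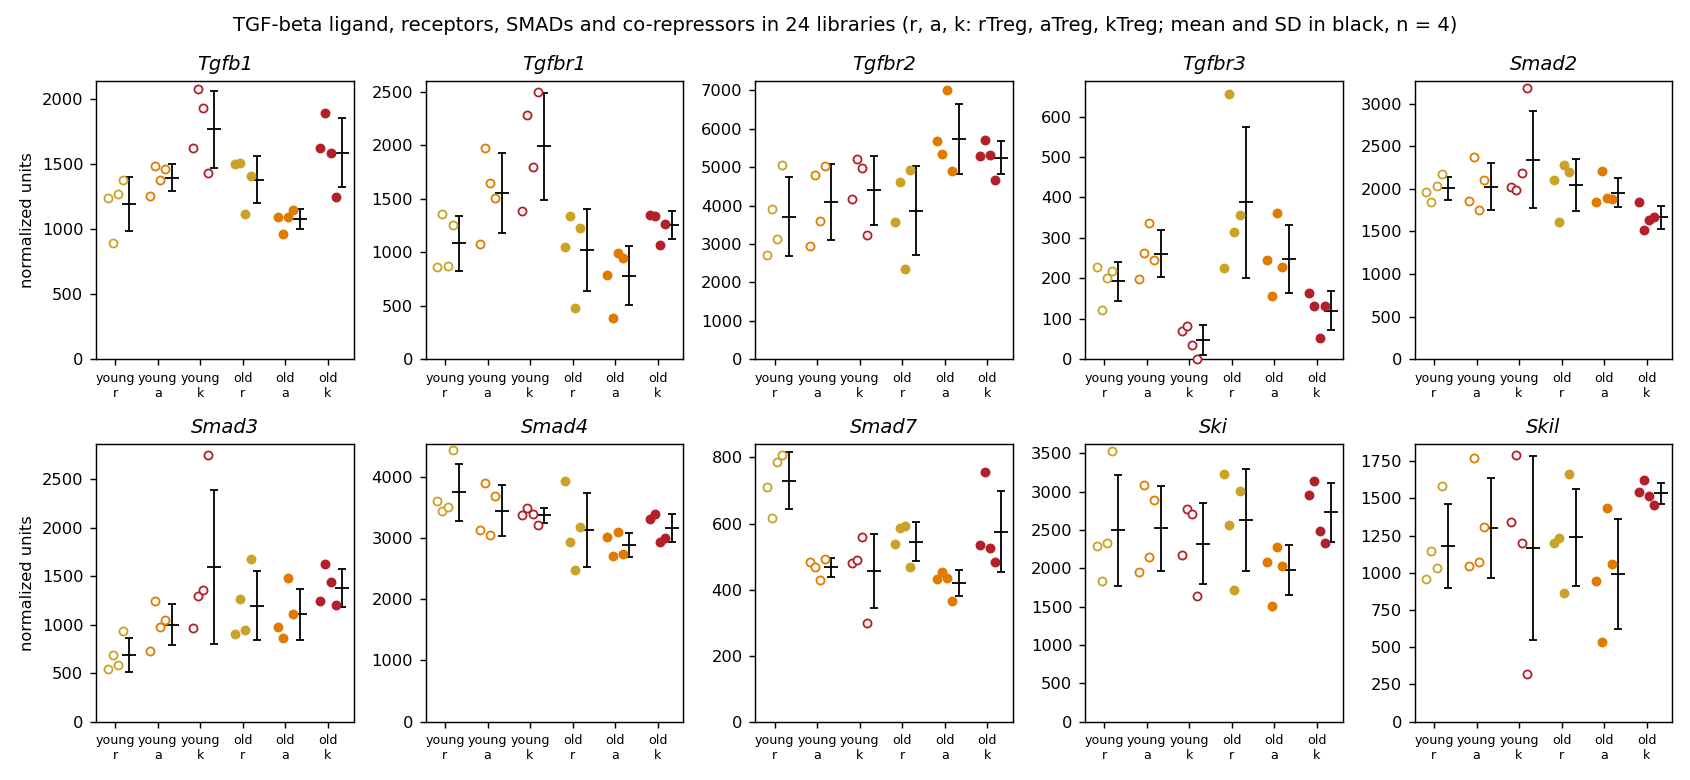
Normalized units of the 10 genes (y axis, from 0) in every library of the 6 groups (x axis, r, a and k for rTreg, aTreg and kTreg cells), with open points for young and filled points for old mice and the group mean and SD (n = 4) in black. *Tgfbr3* is lowest in both kTreg groups, with 0 in the young kTreg library of replicate 4, and *Smad7* is highest in young rTreg cells.

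The comparison of the subsets asked which members set KLRG1+ Treg cells apart from activated and resting ones. Over both ages, with equal weight, 1 of the 10 members passed both thresholds (adjusted p under 0.05 and a fold above 1.5) between kTreg and aTreg cells, the lower *Tgfbr3*, against 7.39% of the 16630 genes tested. Between kTreg and rTreg cells 3 did, *Tgfbr1* and *Smad3* higher and *Tgfbr3* lower, against 15.5%. Between aTreg and rTreg cells limma called 0 members, against 8.01%, with 2 at an unadjusted p under 0.05 against 21.8% of all genes, and edgeR and DESeq2 also called 0. With no fold threshold, 2 members (*Tgfb1* and *Tgfbr3*) passed between kTreg and aTreg cells, against 12.1%, and 1 (*Smad7*) between aTreg and rTreg cells, against 10.5%. In bulk samples, fewer cells of a type that transcribe a gene and less RNA of it per cell cannot be told apart, which holds for every difference given here.

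**Figure D2:**
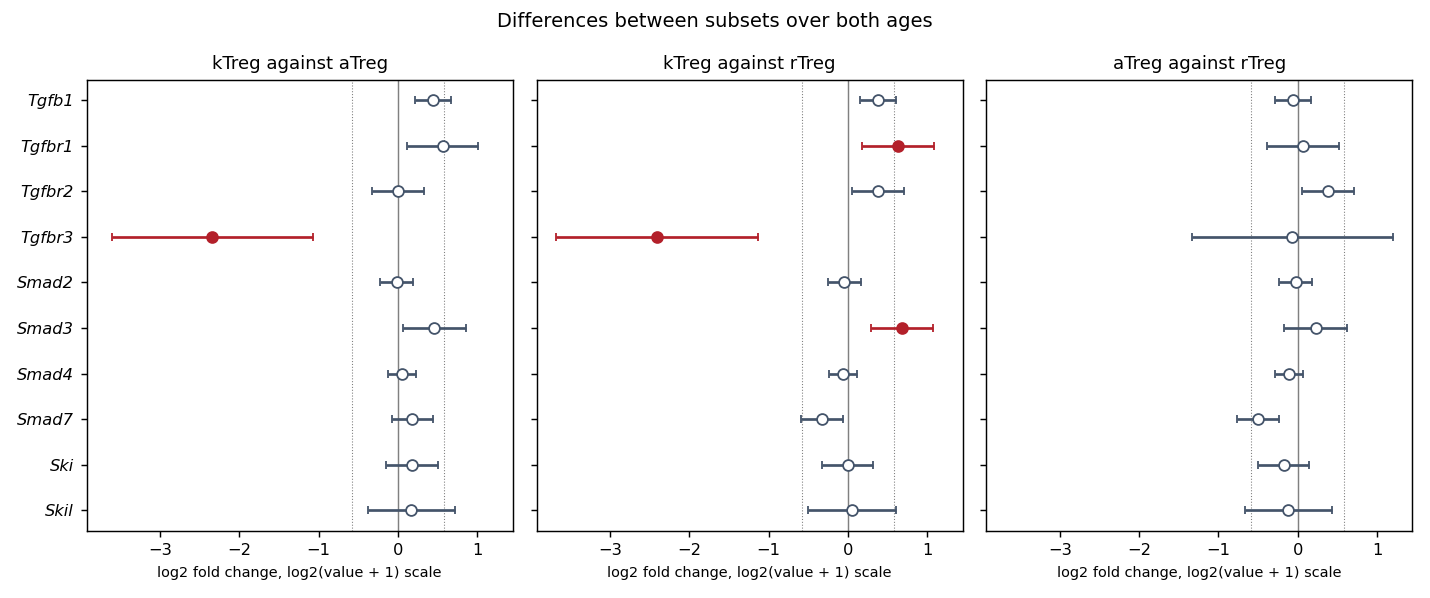
Log2 fold changes on the log2(value + 1) scale (x axis) of the 10 genes (y axis) between subsets over both ages, with 95% intervals from the limma model. Filled red points passed an adjusted p under 0.05 and a fold above 1.5 (dotted lines mark that fold), which *Tgfbr3* did in both comparisons of kTreg cells and *Tgfbr1* and *Smad3* against rTreg cells alone.

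The ligand gene *Tgfb1* was higher in kTreg cells than in either other subset, by less than 1.5-fold. In young mice, replicates 1 to 4 had 1624, 2076, 1928 and 1425 units in kTreg cells, 1251, 1480, 1374 and 1459 in aTreg cells and 1238, 888, 1267 and 1373 in rTreg cells. In old mice they had 1619, 1891, 1580 and 1246 in kTreg cells, 1095, 963, 1089 and 1143 in aTreg cells and 1496, 1504, 1112 and 1402 in rTreg cells. The kTreg values lay above all rTreg values in young mice and above all aTreg values in old mice, while the other 2 pairs of groups overlapped. The log2 difference was 0.44 ± 0.11 (SE) between kTreg and aTreg cells, a 1.36-fold difference with an adjusted p of 0.00907, and kTreg was the higher in 7 of 8 mice. It was 0.38 ± 0.11 between kTreg and rTreg cells (adjusted p = 0.0128), again in 7 of 8 mice. Within young mice the difference from rTreg cells was 0.57 (adjusted p = 0.0110), under the fold threshold, and it was 0.67 (adjusted p = 0.00347) without the kTreg library of replicate 4, past both, and 0.35 (adjusted p = 0.142) without young mouse 2. Over both ages, without the 3 libraries of young mouse 2, the difference from rTreg cells was 0.27, with an adjusted p of 0.0748, and that from aTreg cells was 0.41 (adjusted p = 0.0145).

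Between aTreg and rTreg cells *Tgfb1* differed by -0.06 ± 0.11 over both ages, with an interval of -0.28 to 0.17. The aTreg library was the higher in 4 of 4 young mice and in 0 of 4 old mice. The interaction of age with this comparison was -0.59 ± 0.22 and did not pass (adjusted p = 0.172).

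*Tgfbr1* encodes the type I receptor kinase that phosphorylates SMAD2 and SMAD3. Its values in young mice were 1385, 2280, 1794 and 2494 units in kTreg cells, 1074, 1978, 1645 and 1501 in aTreg cells and 861, 1353, 867 and 1249 in rTreg cells. In old mice they were 1346, 1336, 1067 and 1259 in kTreg cells, 785, 386, 995 and 949 in aTreg cells and 1044, 1341, 478 and 1223 in rTreg cells. The kTreg library was the highest of the 3 in all 4 young mice, and in old mice kTreg cells lay above every aTreg library but overlapped with rTreg cells.

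The *Tgfbr1* transcript was 1.55-fold higher in kTreg than in rTreg cells (log2 difference 0.63 ± 0.22, adjusted p = 0.0392), in 7 of 8 mice. This call was lost in 17 of 44 alternative settings. Without the young kTreg library of replicate 4 the difference was 0.57 (adjusted p = 0.0549), without young mouse 2 it was 0.65 (adjusted p = 0.0616), and edgeR on the recovered reads gave 0.58 (adjusted p = 0.0429), under the fold threshold. Within young mice the difference from rTreg cells was 0.87 (adjusted p = 0.0507, and 0.0437 with the mouse as a replicate block), and it passed in 16 of 44 alternative settings. Between kTreg and aTreg cells the difference was 0.56 ± 0.22, in 8 of 8 mice, and did not pass (adjusted p = 0.0980), but did without old mouse 3 (0.67, adjusted p = 0.0301).

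*Tgfbr2*, the type II receptor that binds the ligand first, did not differ past the thresholds in any subset comparison with all libraries. Its values ran from 2347 units in an old rTreg library to 7011 in an old aTreg library. Against rTreg cells the log2 difference was 0.38 ± 0.16 in kTreg cells (adjusted p = 0.0907) and 0.38 ± 0.16 in aTreg cells (adjusted p = 0.148), each in 6 of 8 mice. Between kTreg and aTreg cells it was -0.00, with an interval of -0.33 to 0.33, which leaves out a 1.5-fold change in either direction. Within old mice aTreg cells differed from rTreg cells by 0.61, which did not pass (adjusted p = 0.0873). That difference passed without young mouse 4 (adjusted p = 0.0386), whose libraries enter it through the shared spread alone.

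*Tgfbr3*, which encodes the co-receptor betaglycan that presents ligand to the type II receptor, was lower in kTreg cells than in both other subsets. In young mice it read 69.3, 81.3, 35.6 and 0 units in kTreg cells, 197, 264, 337 and 245 in aTreg cells and 228, 121, 200 and 219 in rTreg cells. In old mice it read 165, 132, 51.4 and 131 in kTreg cells, 246, 156, 361 and 229 in aTreg cells and 225, 656, 314 and 357 in rTreg cells. The kTreg library was the lowest of the 3 in all 8 mice, the young groups did not overlap, and in old mice 1 kTreg library (165) passed the lowest aTreg library (156).

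The log2 difference of *Tgfbr3* was -2.34 ± 0.61 between kTreg and aTreg cells (adjusted p = 0.0136) and -2.41 ± 0.61 between kTreg and rTreg cells (adjusted p = 0.00601). The size of both rests in part on the value of 0 in the young kTreg library of replicate 4. Without that library they were -1.60 (adjusted p = 0.000347) and -1.67 (adjusted p = 7.51e-05). Without old mouse 3 the difference from aTreg cells was -2.06 and did not pass (adjusted p = 0.0606). By mean values, young kTreg cells held 46.6 ± 36.6 units (SD, n = 4), or 62.1 ± 23.7 (n = 3) without it, against 261 ± 58.0 in young aTreg cells (n = 4). Within young mice *Tgfbr3* passed against both aTreg cells, where 6.95% of all genes passed, and rTreg cells, where 15.8% did, and within old mice the differences of -1.10 ± 0.87 from aTreg and -1.69 ± 0.87 from rTreg cells did not (adjusted p = 0.603 and 0.231). The young calls were lost when the model held the compared groups alone (adjusted p = 0.195 and 0.172) and without young mouse 3 (-3.71, adjusted p = 0.0578, and -3.35, adjusted p = 0.0519). The old kTreg libraries, 51.4 to 165 units, lay below all old rTreg libraries, 225 to 656, and that difference passed in 5 of 44 alternative settings, among them the model without the young kTreg library of replicate 4, which enters it through the shared spread alone (-1.69, adjusted p = 0.00366). The interaction of age with kTreg against aTreg was 2.48 ± 1.22 and did not pass (adjusted p = 0.543), and without that library it was 1.01 (adjusted p = 0.635), so the ages were not shown to differ.

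**Figure D3:**
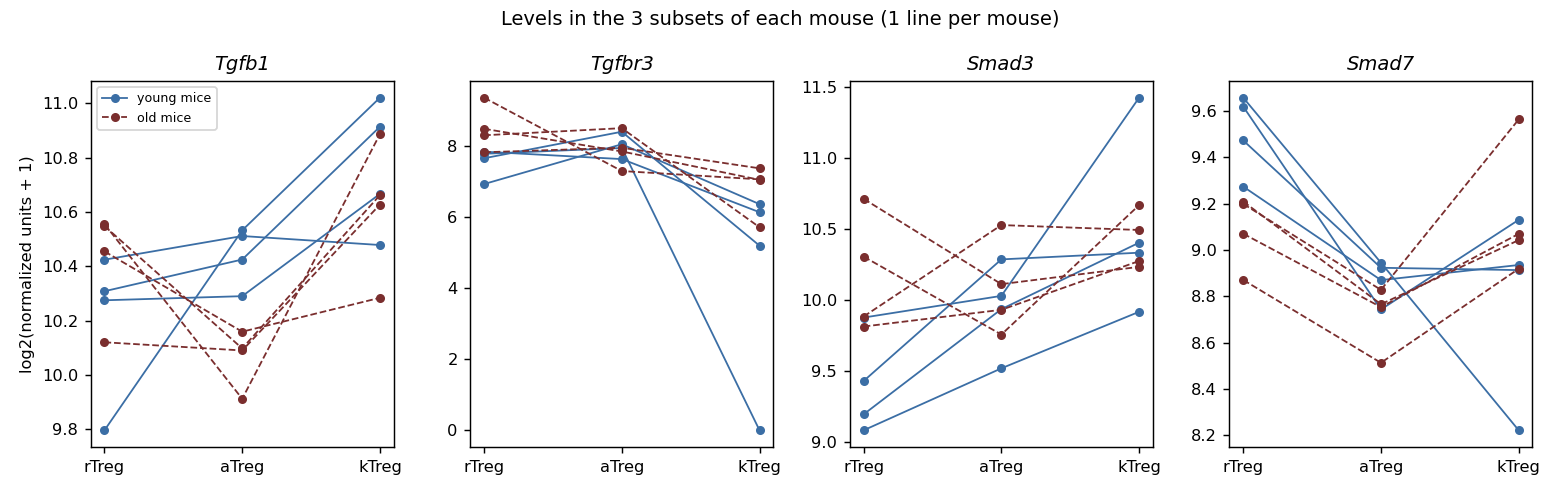
Levels of *Tgfb1*, *Tgfbr3*, *Smad3* and *Smad7* as log2(normalized units + 1) (y axis, not from 0) in the 3 subsets of each mouse (x axis), with 1 line per mouse, solid for young and dashed for old. *Tgfbr3* is lowest in the kTreg library of all 8 mice, *Smad7* is lower in the aTreg than in the rTreg library of all 8, and the *Smad3* lines of young mice rise from rTreg to kTreg cells.

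Of the 2 receptor-regulated SMADs, *Smad3* differed between subsets and *Smad2* did not pass in any. *Smad3* values in young mice were 966, 1290, 1355 and 2751 units in kTreg cells, 733, 1248, 979 and 1045 in aTreg cells and 541, 689, 585 and 939 in rTreg cells. In old mice they were 1239, 1627, 1441 and 1204 in kTreg cells, 976, 865, 1476 and 1106 in aTreg cells and 899, 1265, 944 and 1678 in rTreg cells. In young mice all kTreg libraries lay above all rTreg libraries, and in old mice the subsets overlapped.

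*Smad3* was 1.60-fold higher in kTreg than in rTreg cells over both ages (log2 difference 0.68 ± 0.19, adjusted p = 0.0115), in 7 of 8 mice. Without the young kTreg library of replicate 4, whose 2751 units are the highest of all 24 libraries, the difference was 0.53 and fell under the fold threshold (adjusted p = 0.0148). Within young mice it was 1.12 ± 0.27, or 2.18-fold (adjusted p = 0.00471), and 0.82 without that library (adjusted p = 0.0140), still past both thresholds, while the model of the compared groups alone gave an adjusted p of 0.0567. Within old mice it was 0.24 ± 0.27 (adjusted p = 0.632). The interaction of age with this comparison, -0.89 ± 0.38, did not pass (adjusted p = 0.229).

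*Smad2* differed by -0.02 ± 0.10 between kTreg and aTreg cells and by -0.04 ± 0.10 between kTreg and rTreg cells. The 95% intervals, -0.23 to 0.19 and -0.25 to 0.16, leave out a change of 1.5-fold in either direction. Per kilobase of exon, the ratio of *Smad3* to *Smad2* had a median of 0.640 in young rTreg, 0.991 in young aTreg and 1.23 in young kTreg libraries. In old mice the medians were 1.15, 1.08 and 1.55 for rTreg, aTreg and kTreg libraries. In young mice the rTreg libraries lay between 0.534 and 0.838 and the kTreg libraries between 0.927 and 1.68, without overlap. In old mice the rTreg libraries, 0.803 to 1.53, overlapped with the kTreg libraries, 1.30 to 2.08. The aTreg libraries, 0.765 to 1.08 in young and 0.761 to 1.52 in old mice, overlapped with both other subsets of their age. The ratios are given as values, without a test.

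*Smad4*, the common partner that both receptor-regulated SMADs need, had the smallest fold range of the 10. It lies on chromosome 18, as do *Smad2* and *Smad7*, ranged from 2468 to 4437 units, and its differences between subsets were 0.05 (interval -0.12 to 0.23) for kTreg against aTreg, -0.06 (-0.23 to 0.12) for kTreg against rTreg and -0.11 (-0.29 to 0.07) for aTreg against rTreg cells.

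*Smad7* encodes the inhibitory SMAD that blocks the type I receptor and is itself a target of the pathway. It read 710, 618, 786 and 807 units in young rTreg cells, 485, 467, 428 and 492 in young aTreg cells and 481, 489, 559 and 298 in young kTreg cells. In old mice it read 537, 587, 591 and 467 in rTreg, 431, 454, 434 and 364 in aTreg and 537, 756, 526 and 483 in kTreg cells. At both ages all aTreg values lay below all rTreg values. Young kTreg cells also lay below young rTreg cells, while old kTreg cells overlapped with old rTreg cells.

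Over both ages *Smad7* was 0.705 times as high in aTreg as in rTreg cells, a log2 difference of -0.50 ± 0.13 (adjusted p = 0.0112) seen in 8 of 8 mice but short of the 1.5-fold threshold. Within young mice the difference was -0.64 ± 0.18 and passed both thresholds (adjusted p = 0.0493), against 3.35% of all genes. That call was lost in 28 of 44 alternative settings, among them the mouse as a replicate block (adjusted p = 0.0558), edgeR (adjusted p = 0.0534) and the model without young mouse 2 (adjusted p = 0.105). Young kTreg cells differed from young rTreg cells by -0.71 ± 0.18 (adjusted p = 0.00757), or by -0.51 without the library of replicate 4 (adjusted p = 0.0213), which is under the fold threshold, and the model of the compared groups alone gave an adjusted p of 0.0754. In old mice the kTreg cells differed from rTreg cells by 0.06 ± 0.18 (adjusted p = 0.880). The interaction of age with kTreg against rTreg was 0.77 ± 0.25, with an adjusted p of 0.107 in limma, 0.140 in edgeR and 0.0482 in DESeq2, and without the young kTreg library of replicate 4 it was 0.57 in limma (adjusted p = 0.138).

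The co-repressors did not pass in any comparison of subsets. *Ski*, which holds SMAD complexes inactive on DNA, ranged from 1508 to 3524 units and differed by 0.17 ± 0.16 between kTreg and aTreg cells (adjusted p = 0.527). *Skil*, which encodes its relative SnoN, ranged from 319 to 1793 units, the lowest value being that of the young kTreg library of replicate 4. Its difference between kTreg and aTreg cells was 0.17 ± 0.26, with an interval of -0.38 to 0.72, which includes a change of 1.5-fold. In old mice all kTreg values, 1453 to 1622 units, lay above all aTreg values, 537 to 1435, and the log2 difference of 0.71 ± 0.37 did not pass (adjusted p = 0.360). The 537 units belong to the old aTreg library of replicate 2, and the others of its group read 942 to 1435. Over the 44 alternative settings this difference ran from 0.42 to 0.92.

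The comparison of ages asked whether the members changed within a subset between 2 and 26 months. Limma called 0 of 10 members in rTreg, aTreg and kTreg cells, against 5.83%, 2.71% and 1.26% of all genes. At an unadjusted p under 0.05 there were 3 members in each subset, against 22%, 12.5% and 15.5% of all genes. EdgeR called 0 in each, and DESeq2 called *Smad3* in rTreg cells and *Tgfbr1* in aTreg cells and none in kTreg cells. For the interactions of age with kTreg against aTreg, kTreg against rTreg and aTreg against rTreg, limma called 0 members, against 0.156%, 3.02% and 1.56% of all genes. The numbers at an unadjusted p under 0.05 were 1, 3 and 1, against 9.4%, 17.2% and 15.8% of all genes, edgeR called 0 in each, and DESeq2 called *Smad7* in the second.

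**Figure D4:**
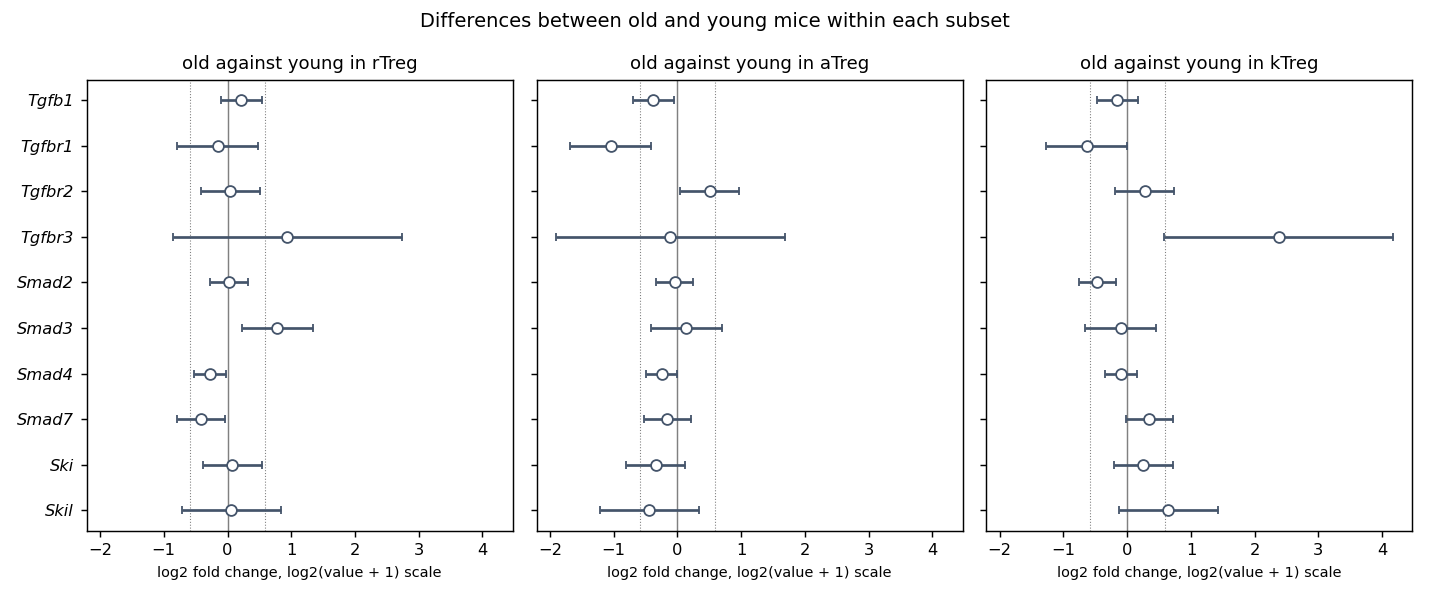
Log2 fold changes on the log2(value + 1) scale (x axis) of the 10 genes (y axis) between old and young mice within each subset, with 95% intervals from the limma model. No point passed an adjusted p under 0.05, and the intervals of *Tgfbr3* are the widest.

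In rTreg cells the old to young difference with the smallest p was that of *Smad3*, 689 ± 178 units in young and 1197 ± 360 in old mice (SD, n = 4 each). The lowest old library (899) lay below the highest young one (939), and the other 3 old libraries lay above it. The log2 difference was 0.78 ± 0.27, with an adjusted p of 0.0807 in limma, 0.0916 in edgeR and 0.0456 in DESeq2. Without the young kTreg library of replicate 4, which enters only through the shared spread, the limma value passed (adjusted p = 0.0199), and without young mouse 2 it did not (adjusted p = 0.121). The old rTreg libraries also had the higher macrophage and monocyte marker sums given above, led by *Lyz2* at 9381 to 25153 units, and *Itga2b*, a platelet and megakaryocyte gene, at 336 to 964 units against 21.6 to 34.3 in young rTreg libraries. The part of those cells in the *Smad3* values was not tested. *Smad7* was lower in old rTreg cells, 545 ± 57.7 against 730 ± 85.5 units, and the groups did not overlap, but the log2 difference of -0.42 ± 0.18 did not pass (adjusted p = 0.170).

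In aTreg cells *Tgfbr1* was at 779 ± 277 units in old and 1549 ± 375 in young mice (SD, n = 4 each). All 4 old libraries, 386 to 995 units, lay below all 4 young libraries, 1074 to 1978. The log2 difference was -1.05 ± 0.31, with an adjusted p of 0.0692 in limma, 0.0685 in edgeR and 0.0213 in DESeq2. The lowest value, 386, belongs to the old aTreg library of replicate 2, which also had the lowest *Foxp3* value, and without that library and the young kTreg library of replicate 4 the difference was -0.74 (adjusted p = 0.208). Without the young kTreg library alone, the limma difference passed (adjusted p = 0.0415). *Tgfb1* also did not overlap between the ages in aTreg cells, 963 to 1143 units in old and 1251 to 1480 in young mice, and differed by -0.37 ± 0.15 (adjusted p = 0.264). *Tgfbr2* had the opposite sign in the same cells, 0.50 ± 0.22 (adjusted p = 0.333), from 4094 ± 986 units in young to 5729 ± 914 in old mice.

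In kTreg cells *Smad2* was at 1668 ± 135 units in old and 2346 ± 567 in young mice. The groups did not overlap, with 1518 to 1845 units in old and 1985 to 3186 in young mice, and the log2 difference of -0.47 ± 0.14 did not pass (adjusted p = 0.109). Without the young kTreg library of replicate 4, which held the 3186 units, the young mean was 2066 ± 109 (n = 3) and the difference -0.31 (adjusted p = 0.297). *Tgfbr1* did not overlap either, at 1067 to 1346 units in old and 1385 to 2494 in young mice, with a difference of -0.64 ± 0.31 (adjusted p = 0.322). The largest difference was that of *Tgfbr3*, 2.37 ± 0.87 (adjusted p = 0.193), which was 1.35 in edgeR (adjusted p = 0.403), and in limma 0.90 (adjusted p = 0.368) without the young kTreg library of replicate 4, where *Tgfbr3* was listed at 0. *Tgfb1* differed by -0.15 ± 0.15 in kTreg cells, with an interval of -0.47 to 0.16, so a 1.5-fold change lay outside it.

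Other genes of the pathway were taken from lists written for their roles, 117 genes of which 95 could be tested. The lists were written with earlier results of these data known. Their counts, here and below, therefore describe the listed genes and are no independent test against the shares of all genes. Over all lists, 9 were higher and 4 lower in kTreg than in aTreg cells, where 7.39% of all genes tested were called, 20 were higher and 7 lower in kTreg than in rTreg cells (15.5% of all genes), and 14 were higher and 6 lower in aTreg than in rTreg cells (8.01%). The median log2 difference over these genes was 0.03, 0.20 and 0.07, beside -0.08, -0.01 and 0.06 over all genes tested. Between old and young mice, 8 were higher and 2 lower in rTreg (5.83% of all genes called), 2 higher and 3 lower in aTreg (2.71%) and 3 higher and 1 lower in kTreg cells (1.26%).

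Of 12 tested genes that make, store or free TGF-beta, 5 were higher and 1 lower in kTreg than in rTreg cells, against 15.5% of all genes called. The higher ones were *Itgav* and *Itgb8*, whose products form an integrin that frees the latent ligand, *Ltbp3* and *Ltbp4*, which encode latent TGF-beta binding proteins, and *Mmp9*, a matrix protease. The lower one was *Lrrc32*, which encodes GARP, the protein that docks latent TGF-beta on the Treg surface. Between aTreg and rTreg cells 4 of the 12 were higher (*Itgav*, *Itgb8*, *Ltbp3* and *Mmp9*) and 1 lower (*Lrrc32*), against 8.01%. Between kTreg and aTreg cells 2 were higher (*Itgav* and *Nrros*) and 0 lower, against 7.39%. *Lrrc32* stood at 6071 ± 1292 units in young rTreg, 5900 ± 1354 in young aTreg and 2170 ± 755 in young kTreg cells, and at 5005 ± 872, 1174 ± 549 and 1290 ± 426 in the old subsets (SD, n = 4 each). The kTreg library was below the rTreg library in all 8 mice, with a log2 difference of -1.77 (adjusted p = 2.98e-05), and aTreg cells differed from rTreg cells by -1.16 (adjusted p = 0.00491). *Ltbp1*, another latent TGF-beta binding protein gene, was at 0 to 3.00 units in old and 17.5 to 62.0 in young rTreg cells (log2 difference -4.32, adjusted p = 0.0191).

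In aTreg cells *Lrrc32* was lower with age by 2.51 on the log2 scale (log2 difference -2.51, adjusted p = 0.000399), and all old libraries, 351 to 1493 units, lay below all young ones, 4399 to 7542. The 351 units belong to the old aTreg library of replicate 2, and the others of its group read 1424 to 1493. All old aTreg libraries also had lower Treg marker sums than all young ones, as given above. The part of those lower sums in the *Lrrc32* difference was not tested. The interaction of age with aTreg against rTreg was -2.24 and passed (adjusted p = 0.0352). *Nrros*, which encodes another docking protein for latent TGF-beta, was higher in kTreg than in aTreg cells by 0.74 (adjusted p = 0.000121), in 8 of 8 mice. *Itgb8* was higher than in rTreg cells by 1.36 in kTreg (adjusted p = 0.00381) and by 1.05 in aTreg cells (adjusted p = 0.0404).

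**Figure D5:**
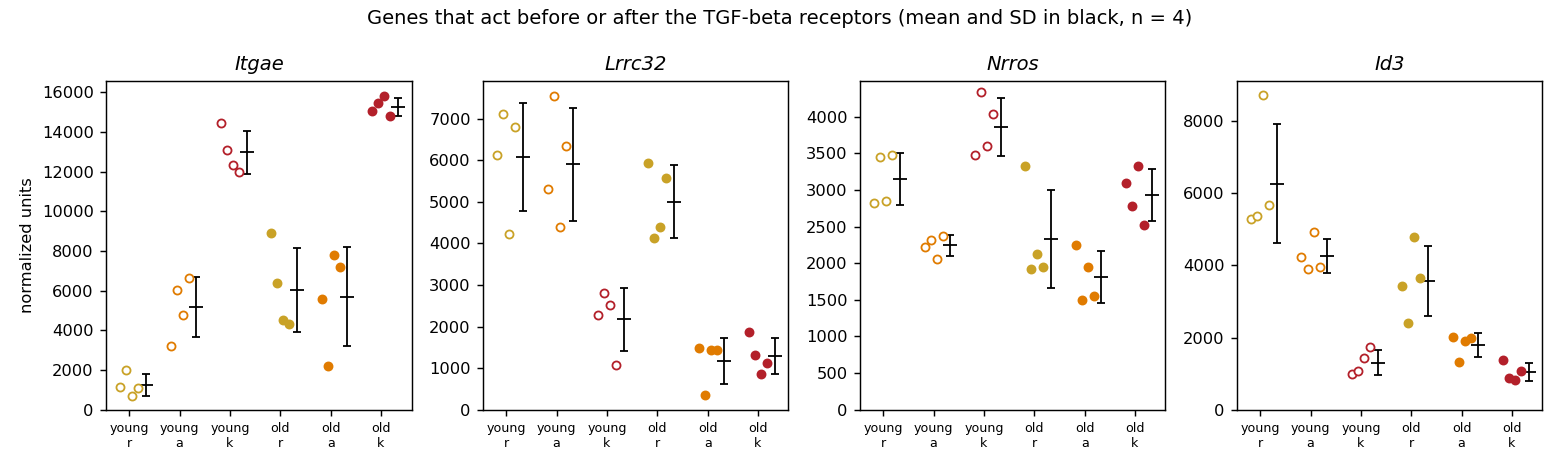
Normalized units (y axis, from 0) of *Itgae*, *Lrrc32*, *Nrros* and *Id3* in every library of the 6 groups (x axis, r, a and k for rTreg, aTreg and kTreg cells), open for young and filled for old mice, with the group mean and SD (n = 4) in black. *Itgae* is highest in both kTreg groups, and *Lrrc32* is low in the old aTreg group and in both kTreg groups.

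Of 12 tested genes known to be raised by TGF-beta, 5 were higher in kTreg than in aTreg cells (*Ccn2*, *Ccr8*, *Gadd45b*, *Gpr15* and *Itgae*) and 1 was lower (*Ldlrad4*), against 7.39% of all genes called. *Itgae*, which encodes the integrin chain CD103, stood at 1242 ± 554 units in young rTreg, 5161 ± 1520 in young aTreg and 12965 ± 1092 in young kTreg cells, and at 6040 ± 2130, 5696 ± 2508 and 15271 ± 458 in the old subsets. It was higher in kTreg than in aTreg cells by 1.48 on the log2 scale (adjusted p = 0.000231) and than in rTreg cells by 2.44 (adjusted p = 9.90e-08), in 8 of 8 mice each. In rTreg cells it was higher in old than in young mice by 2.32 (adjusted p = 0.000143), and the interactions of age with kTreg against rTreg (-2.08, adjusted p = 0.0155) and aTreg against rTreg (-2.28, adjusted p = 0.0186) passed. *Gpr15*, a homing receptor, was higher in kTreg than in aTreg cells by 1.12 (adjusted p = 0.00233), and in old than in young rTreg cells by 3.13 (adjusted p = 3.79e-06).

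Of 12 tested genes listed as lowered by TGF-beta, 2 were higher and 3 lower in kTreg than in aTreg cells. Of all genes tested, 7.39% were called. The higher ones were the granzyme genes *Gzma* (4.87, adjusted p = 3.44e-05) and *Gzmb* (2.98, adjusted p = 2.22e-06), and the lower ones *Id3*, *Il2* and *Myc*. Whether TGF-beta lowers the listed genes in these cells was not tested. *Gzma* was near the floor in aTreg cells, at 0 to 66.1 units in young and 12.6 to 34.5 in old mice, so the size of its difference rests on low values. Its means were 543 in young and 223 in old kTreg cells, and 174 in young and 224 in old rTreg cells. *Id3*, a repressor of E proteins, was lower in kTreg than in aTreg cells by 1.27 on the log2 scale (log2 difference -1.27, adjusted p = 1.32e-05) and lower in old than in young aTreg cells (log2 difference -1.25, adjusted p = 0.00175). It was also called lower in old than in young rTreg cells, with means of 3565 and 6262 units. *Id2*, its relative, was higher than in rTreg cells in both kTreg (2.49, adjusted p = 9.21e-11) and aTreg cells (2.48, adjusted p = 1.61e-10), while *Id1*, of the same family, was lower in aTreg than in rTreg cells (-2.49, adjusted p = 0.00186). With age *Id2* went the other way from *Id3*. It was called higher in old than in young aTreg cells (means 14476 and 4320 units) and rTreg cells (2393 and 847 units). Mean *Id1* levels were 13.8 units in young rTreg, 6.30 in young aTreg, 102 in old rTreg and 8.13 in old aTreg cells. All but old rTreg cells thus lay near the floor, with 0 in the young aTreg library of replicate 4. The part of the macrophage and monocyte cells of old rTreg libraries in the *Id1* values was not tested. *Tbx21*, which encodes the transcription factor T-bet, was higher in aTreg than in rTreg cells by 1.51 (adjusted p = 2.84e-05) and in old than in young rTreg cells by 2.38 (adjusted p = 2.00e-05). Its relative *Eomes* was at 61.8 to 242 units in old and 0 to 25.1 in young kTreg cells, with a log2 difference of 3.53 (adjusted p = 0.0213), or 2.39 without the young kTreg library of replicate 4 (adjusted p = 0.0138). *Gzmb* was lower in old than in young kTreg cells (log2 difference -1.88, adjusted p = 0.0383), a call lost without that library (adjusted p = 0.0667).

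Of 17 nuclear partners of SMADs, limma called 0 in the 3 subset comparisons over both ages, against 7.39% to 15.5% of all genes. It also called 0 in the 3 age comparisons, against 1.26% to 5.83%. *E2f4* was called in the interactions of age with kTreg against rTreg and aTreg against rTreg, 1 gene in each, against 3.02% and 1.56%. Between young kTreg and young aTreg cells 1 was called (*Rbl1*, higher), against 6.95%. Between young kTreg and young rTreg cells 3 were called (*Rbl1* higher, *Kat2b* and *Zeb1* lower), against 15.8%. Of 24 regulators of receptors and SMADs limma called 1 between kTreg and aTreg cells, the lower *Ldlrad4*, against 7.39% of all genes. *Ldlrad4*, a membrane protein that sequesters receptor-regulated SMADs, fell under the fold threshold without the young kTreg library of replicate 4 (-0.57). *Usp11*, a deubiquitinase, was higher in old than in young kTreg cells by 1.18 (adjusted p = 0.0467), and by 0.87 without that library (adjusted p = 0.117). *Nedd4l*, a ubiquitin ligase for SMADs, was lower in kTreg (-0.91, adjusted p = 0.0321) and aTreg (-1.28, adjusted p = 0.00679) than in rTreg cells. It was also called lower in old aTreg cells, at 53.7 to 172 units, than in young ones, at 307 to 545 units. Among the other receptors of the superfamily, *Bmpr1a*, a type I receptor for bone morphogenetic proteins, was higher in old mice in all 3 subsets, by 2.96 in rTreg (adjusted p = 0.00217), 3.50 in aTreg (adjusted p = 9.00e-04) and 2.60 in kTreg cells (adjusted p = 0.0213). It ranged from 10.5 to 158 units in young and from 56.2 to 761 in old libraries, and within each subset all old libraries lay above all young ones. Without the young kTreg library of replicate 4 the call in kTreg cells was lost (2.23, adjusted p = 0.0540).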

How the data were processed

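Per the paper's methods and the submitters' processing notes, cDNA was made from sorted splenic Treg cells, paired reads of 150 bases were aligned to GRCm39 with HISAT2 2.2.1, reads per gene were counted with HTSeq 1.99.2 and DESeq2 1.44.0 was used for normalization. The deposited values are a normalized signal, reads divided by a size factor per library. The annotation release and strand setting are not given in the sources used here, so reads of overlapping antisense genes cannot be told apart. Whole reads were recovered within 0.001 for all values, and 0 columns were left without a sample. Symbols, positions and exon lengths came from GENCODE M39, which named 17353 genes.

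One limma model of the 6 groups (version 3.58.1, R 4.3.3, trended prior variance) was fitted to log2(value + 1) over the 16630 genes that reached 10 units in 4 or more libraries. On that scale fold changes of low genes are understated, while a single value of 0, as *Tgfbr3* has, enlarges them. A call needed a p under 0.05 after Benjamini-Hochberg adjustment over all genes tested, and a fold above 1.5. By the submitters' design text all 3 subsets came out of the same 8 mice, so a shared number was read as a shared mouse, and deviations from the group means correlated with a median of 0.153, 0.0911 and 0.115 (rTreg with aTreg, rTreg with kTreg, aTreg with kTreg) against -0.0331, -0.0340 and -0.0507 between mice.

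EdgeR 4.0.16 and DESeq2 1.42.0 on the recovered reads, other pseudocounts, filters and scalings, the replicate block and leaving out libraries or mice were alternatives. The limma fit was tested on simulated data, and the edgeR and DESeq2 alternatives were not. The members and lists were chosen with earlier results of these data known. All 10 members are named, and from the lists, in each comparison, the 3 called genes of lowest p higher and lower, with *Itgae*, *Lrrc32* and *Itgb8*. Other genes named as called complete a count, and not every called difference of a named gene is stated. Python 3.11.15 was used for tables and matplotlib 3.10.9 for figures.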

Additional observations from a re-analysis of the deposited data

Results flagged for a closer look

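In 60 groups of 4 libraries (10 members in 6 groups), 3 held a library far from the other 3 by Dixon's criterion, which chance meets in about 1 group of 20. *Smad2* was at 3186 units in the young kTreg library of replicate 4, against 1985 to 2190 in the other young kTreg libraries. *Smad2* was at 2207 units in the old aTreg library of replicate 2, against 1851 to 1891 in the others of its group. *Smad4* was at 4437 units in the young rTreg library of replicate 4, against 3437 to 3601 in the others. The first and second of these libraries are those that stood apart by genes listed at 0 and by *Foxp3*.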

How the results depend on the processing

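Counts of members called were recomputed under 44 alternatives, 11 of them with all libraries, and no member changed direction past the threshold. With no fold threshold, 2 members passed between kTreg and aTreg cells and 1 between aTreg and rTreg cells. With DESeq2, 1 passed between old and young rTreg cells, 1 in aTreg cells and 1 for the interaction of age with kTreg against rTreg. By unadjusted p and fold, 1 passed with age in rTreg, 1 in aTreg and 2 in kTreg cells, and 2 and 1 for the interactions with kTreg against rTreg and aTreg against rTreg. Unadjusted p alone was met by 22%, 12.5% and 15.5% of all genes in these age comparisons. It was met by 17.2% and 15.8% in these interactions. The shares of all genes with the fold threshold added, and with DESeq2, are not given, so these counts cannot be set against them. Leaving out libraries or mice gave 1 to 3 members between kTreg and rTreg cells, 0 to 1 with age in rTreg and 0 to 1 in aTreg cells. Without both libraries that stood apart, an alternative chosen after seeing the data, 1 member passed between kTreg and rTreg cells and 1 between old and young rTreg cells. The mouse as a replicate block, with a consensus correlation of 0.0620 for the age comparisons, left the counts at 1 between kTreg and aTreg cells, 3 between kTreg and rTreg cells and 0 in the other 7 comparisons over both ages or between them. Shares of all genes with libraries or mice left out, and with that block, are not given, so these counts cannot be set against them. Within young mice, that block ended the *Smad7* call between aTreg and rTreg cells (adjusted p = 0.0558) and added *Tgfbr1* between kTreg and rTreg cells (adjusted p = 0.0437), with no other change of call. The causes of these changes were not tested. With 4 mice per group, the age intervals of *Tgfbr3*, *Skil*, *Tgfbr1* and *Smad3* included changes above 1.5-fold in every subset.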
